A study of Mus musculus with 6 samples.

Results

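The genes described here are 10 that encode immune checkpoint receptors and their ligands: Tigit, Cd96, Cd226, Lag3, Havcr2, Pdcd1 and Ctla4 for receptors, and Cd274, Pvr and Nectin2 for ligands. They were chosen by symbol, and all 10 were found among the 57180 genes of the deposited count table, with 1 row each. RNA was sequenced from liver NK cells of male C57BL/6J mice aged 6 to 8 weeks, all with liver fibrosis induced by CCl4 (20% solution, 2.5 ml/kg, injected intraperitoneally 2 times per week over 4 weeks). Livers were harvested 48 h after the final dose. NK cells were sorted by CD36, a surface receptor for fatty acids, into CD36+ NK and CD36- NK, with 3 libraries in each group. In the study's flow cytometry NK cells were gated as CD3- NK1.1+, and its text does not give the gate for the sequenced cells. Every library came from fibrotic liver, so the comparison is between fractions of the same tissue, and the sources used here do not say how many mice went into a library. P-values therefore measure the spread between these samples.

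Checkpoint receptors adjust the threshold at which NK cells and T cells respond. TIGIT, CD96 and CD226 bind overlapping ligands of the nectin family, chiefly PVR (CD155) and nectin-2 (CD112). CD226 activates killing on contact with these ligands, TIGIT inhibits it, and CD96 competes for PVR, with an inhibitory role in mouse NK cells. LAG-3, TIM-3 (encoded by Havcr2), PD-1 (Pdcd1) and CTLA-4 (Ctla4) are inhibitory receptors best known from exhausted or regulatory T cells, TIM-3 also being found on macrophages and dendritic cells. PD-L1, the product of Cd274, is the main ligand of PD-1.

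A gene was called when edgeR's quasi-likelihood test gave an adjusted p under 0.05 over all 14761 tested genes and the fold change was above 2. Of the 10 genes, 9 passed the filter on low counts and 4 were called: Tigit, Cd96 and Cd226 were lower in CD36+ NK, and Havcr2 was higher. Each of these calls was lost in some of 16 alternative fits. With 1 library left out, 0 to 5 of the 10 genes and 417 to 1160 of all tested genes were called. The background of calls was 5.96% of all tested genes, with 2.98% called higher and 2.98% called lower. Levels are given as CPM, counts relative to the size of the library, after scaling by the trimmed mean of M values (TMM), fold changes are CD36+ NK over CD36- NK, and the median log2 fold change of all tested genes was 0.01.

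The sort and the makeup of the libraries are described first, and their part in the value of each gene was not tested. The counts of Cd36 were 1232, 3569 and 2859 for CD36+ NK against 186, 359 and 175 for CD36- NK, and its log2 fold change was 3.27 (edgeR adjusted p = 0.00615). The groups follow the sample titles, while the library names write "CD36--NK" for the samples titled CD36+ and "CD36-NK" for those titled CD36-. The genes of the NK lineage list were detected in every library. In CD36+ NK they were lower in 12 of 12 cases, with a median log2 fold change of -2.28. Among them were Klrb1c (-2.46), which encodes the NK1.1 antigen of the study's flow cytometry gate, and Ncr1 (-2.43). Of 10 genes of conventional NK cells, 8 were called lower as well (median -2.58). The list of liver-resident NK cells and ILC1 had 0 of 10 genes called by edgeR (2 at an unadjusted p under 0.05, and 0 called by DESeq2), 4 positive log2 fold changes and a median of -0.26. Its Itga1 and Tnfsf10, both at -0.9, passed the adjusted p (0.00996 and 0.0345) but not the fold threshold, and the difference between the lists was not tested. Of 8 erythroid genes, 5 were called higher (median 1.84). The summed level of the NK lineage list, led by Gzma and Il2rb, ranged from 1246 to 1562 CPM among CD36+ NK libraries and from 6313 to 8274 among CD36- NK libraries. A list of 8 B cell genes ranged from 11644 to 13409 CPM (CD36+ NK) and from 7142 to 9359.7 CPM (CD36- NK), more than the NK lineage list in 5 of 6 libraries. The B cell list was led by Ighm and Cd79a, and its genes had log2 fold changes of 0.16 to 0.68. Macrophage and Kupffer cell genes summed to 1224 to 3582 CPM and 134 to 688 CPM, respectively. In such bulk samples fewer cells of a type and less RNA per cell cannot be told apart. Library sizes ran from 10292480 to 13787189 counts.

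The promoters of the called genes are shown because these genes moved together or in opposite directions. Of the 10 genes, 7 had an entry in the RefSeq promoter table (GRCm38.p6), while Cd226, Lag3 and Pvr had none. The 250 bases before the annotated start are printed 5′ to 3′ on the strand of the gene, and capitals mark letters that match 1 of 3 motifs searched on both strands: GGTGTGA (T-box), AGGAAG (ETS) and TGTGGT (RUNX). The windows lie at chr16:43664185-43664434 (minus strand, Tigit), chr16:46120249-46120498 (minus strand, Cd96) and chr11:46454681-46454930 (plus strand, Havcr2).
Tigit: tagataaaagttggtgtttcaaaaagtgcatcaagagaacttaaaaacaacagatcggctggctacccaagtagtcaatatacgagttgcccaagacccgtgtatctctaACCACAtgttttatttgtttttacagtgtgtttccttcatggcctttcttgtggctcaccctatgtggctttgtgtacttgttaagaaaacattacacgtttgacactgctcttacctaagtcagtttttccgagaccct
Cd96: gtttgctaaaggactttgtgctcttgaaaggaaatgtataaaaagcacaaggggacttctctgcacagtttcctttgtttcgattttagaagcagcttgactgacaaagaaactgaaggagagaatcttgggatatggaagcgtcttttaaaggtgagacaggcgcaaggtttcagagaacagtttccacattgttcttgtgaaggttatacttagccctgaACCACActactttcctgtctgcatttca
Havcr2: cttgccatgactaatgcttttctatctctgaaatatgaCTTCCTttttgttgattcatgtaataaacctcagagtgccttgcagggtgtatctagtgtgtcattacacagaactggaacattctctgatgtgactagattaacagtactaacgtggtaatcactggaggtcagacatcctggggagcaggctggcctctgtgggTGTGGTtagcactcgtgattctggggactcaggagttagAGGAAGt
The RUNX letters, on either strand, were in all 3 windows and in 14.0% of the 32851 promoters of the same length. Tigit held them 135 bases before the start, Cd96 23 bases and Havcr2 41 bases before it. The ETS letters occurred at 2 places in Havcr2, against 29.5% of all promoters with any match, and the T-box letters, present in 3.33%, were in none of the 3 windows. No match overlapped another. These are matches of letters in a window.

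Tigit (ENSMUSG00000071552; chromosome 16, minus strand, 43469230 to 43484509, as deposited, with no mouse genome build named) encodes the inhibitory receptor of the nectin axis. It had 106, 83 and 63 counts in CD36+ NK replicates 1, 2 and 3, and 331, 166 and 207 counts in CD36- NK. As CPM these were 9.41, 6.09 and 5.23 against 25.4, 14.6 and 20.2. Every CD36+ NK library was below every CD36- NK library. The means were 6.91 ± 2.21 (SD, n = 3) and 20.1 ± 5.37 CPM (SD, n = 3), a 2.91-fold lower level in CD36+ NK, and the log2 fold change was -1.54 (standard error 0.286, 95% interval -2.21 to -0.87, edgeR adjusted p = 0.0197).

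Cd96 (ENSMUSG00000022657; chromosome 16, minus strand, 45856020 to 45940614) encodes the receptor that shares PVR with TIGIT and CD226. Its counts were 283, 176 and 118 in CD36+ NK and 716, 606 and 677 in CD36- NK. The CPM values were 25.1, 12.9 and 9.79 against 54.9, 53.5 and 66.0. CD36+ NK replicate 1 was the highest of its group and still under the lowest CD36- NK library. Cd96 had the steepest drop of the 4 called genes, at 3.65-fold lower, and means of 15.9 ± 8.1 and 58.1 ± 6.84 CPM (SD, n = 3 each). The log2 fold change was -1.87 (standard error 0.327, 95% interval -2.64 to -1.10, edgeR adjusted p = 0.0162).

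Cd226 (ENSMUSG00000034028; chromosome 18, plus strand, 89195091 to 89290353) encodes the activating receptor of the axis, DNAM-1. It had 222, 222 and 120 counts in CD36+ NK and 537, 434 and 583 in CD36- NK. The CPM values were 19.7, 16.3 and 9.96 against 41.2, 38.3 and 56.8. Again the groups did not overlap, and CD36+ NK replicate 3 was the lowest library for all 3 receptors. The means were 15.3 ± 4.95 and 45.4 ± 9.96 CPM (SD, n = 3 each), 2.96-fold lower in CD36+ NK, and the log2 fold change was -1.57 (standard error 0.269, 95% interval -2.20 to -0.93, edgeR adjusted p = 0.0149). The activating receptor and both of its competitors were thus lower in the same libraries, in a table where 2.98% of tested genes were called lower.

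**Figure D1:**
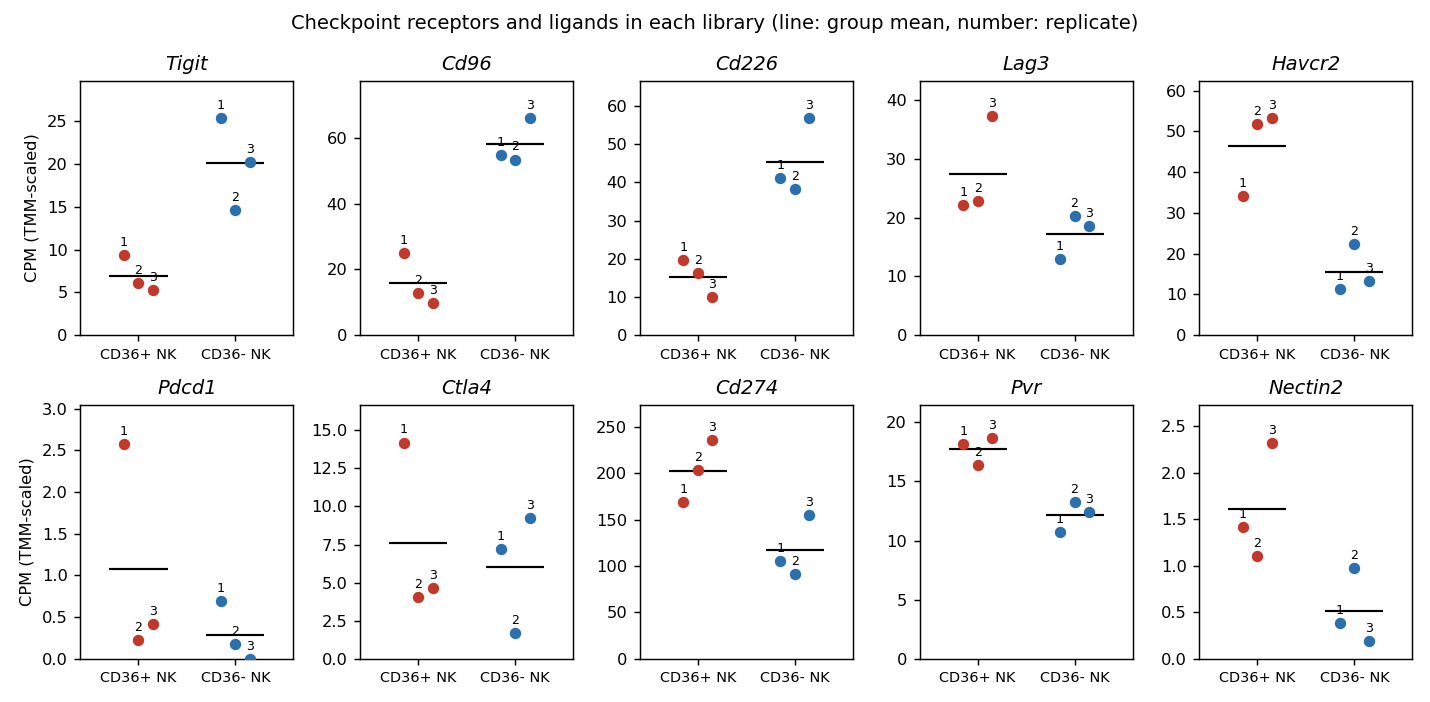
TMM-scaled CPM of the 10 genes in each of the 6 libraries, with CD36+ NK in red, CD36- NK in blue, the replicate number beside each point and a line at the group mean; each panel has its own linear axis from 0. Tigit, Cd96 and Cd226 lie lower in all CD36+ NK libraries, Havcr2, Lag3, Cd274, Pvr and Nectin2 lie higher, and Ctla4 and Pdcd1 overlap.

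Since TIGIT and CD226 oppose each other on shared ligands, the ratios of their counts within each library were compared. These ratios do not depend on library scaling. Tigit counts were 0.477, 0.374 and 0.525 of Cd226 counts in CD36+ NK and 0.616, 0.382 and 0.355 in CD36- NK, so the groups overlapped. The mean log2 ratio differed by 0.06 (exact permutation test, two-sided, p = 0.9, adjusted over 3 ratios p = 0.9). Cd96 counts were 1.27, 0.793 and 0.983 of Cd226 counts in CD36+ NK and 1.33, 1.4 and 1.16 in CD36- NK, a log2 difference of -0.37. Tigit counts were 0.375, 0.472 and 0.534 of Cd96 counts in CD36+ NK and 0.462, 0.274 and 0.306 in CD36- NK, a log2 difference of 0.43. For both of these ratios the groups overlapped as well, and the exact permutation test gave p = 0.2 (adjusted p = 0.3). With 3 libraries against 3 the smallest possible p is 0.1, so no ratio could have passed the threshold. Within the 4 libraries that share a form of name (replicates 2 and 3 of both groups), the Tigit to Cd96 difference was 0.80.

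**Figure D2:**
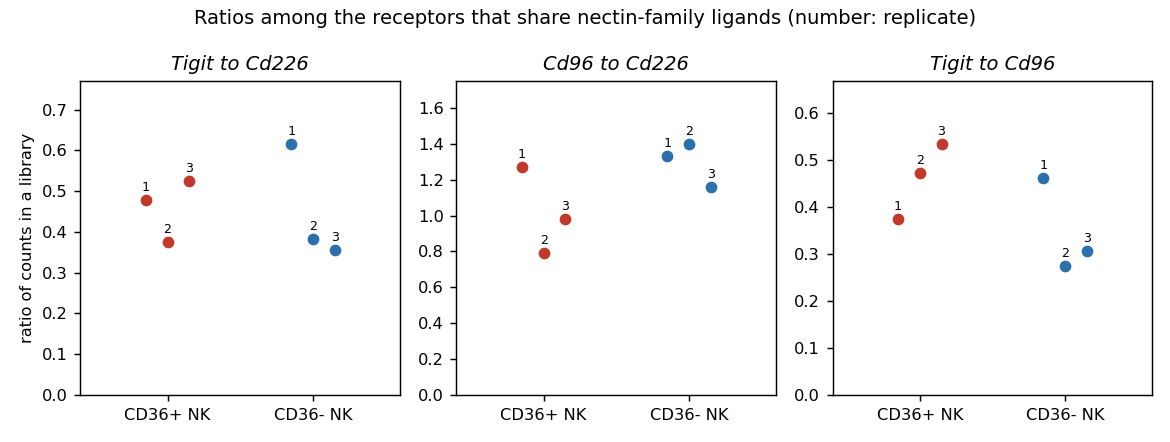
Ratio of the counts of Tigit to Cd226, Cd96 to Cd226 and Tigit to Cd96 within each library on linear axes from 0, with the replicate number beside each point. The CD36+ NK and CD36- NK libraries overlap in all 3 ratios.

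The NK lineage list fell with these receptors. The mean log2 level of its 12 genes, with a pseudocount of 2 CPM, fell by 2.25 in CD36+ NK. Set against that mean in each library, Tigit was 0.94 higher in CD36+ NK on the log2 scale, Cd226 0.77 higher and Cd96 0.42 higher. Havcr2 was 3.74 higher on this scale and Cd274 3.06 higher, and Lag3, Nectin2, Pvr and Ctla4 were 2.51 to 2.85 higher. All 9 tested genes lay higher without overlap of the groups (exact permutation test, two-sided, p = 0.1 for each and adjusted p = 0.1, the smallest that 3 libraries against 3 allow). The same was true of 99.0% of all tested genes, whose median difference was 2.26, so the 3 nectin-axis receptors differed less from the NK lineage list than the median gene did, and Havcr2 more. The Cd96 difference rested on CD36+ NK replicate 1, and was 0.13 without that library. With a pseudocount of 0.5, 8 of the 9 lay higher without overlap, Cd96 being the exception, and the Nectin2 difference was 3.36, since its level is near or below the pseudocount of 2 CPM.

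The ligands of the nectin axis are carried mostly by target cells and antigen-presenting cells. Pvr (ENSMUSG00000040511; chromosome 7, minus strand, 19637503 to 19655085) had 205, 223 and 225 counts in CD36+ NK and 140, 151 and 127 in CD36- NK, or 18.2, 16.4 and 18.7 against 10.7, 13.3 and 12.4 CPM. The libraries of each group lay close together and the groups did not overlap. The means were 17.7 ± 1.21 and 12.1 ± 1.31 CPM (SD, n = 3 each), and the log2 fold change was 0.55 (standard error 0.138, 95% interval 0.22 to 0.87, edgeR adjusted p = 0.0491). Pvr passed the adjusted p but its 1.46-fold difference was under the fold threshold of 2. The adjusted p was above the threshold with any 1 library left out (0.0595 to 0.161).

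Nectin2 (ENSMUSG00000062300; chromosome 7, minus strand, 19450569 to 19484408) was close to the limit of detection. It had 16, 15 and 28 counts in CD36+ NK and 5, 11 and 2 counts in CD36- NK. The groups did not overlap, but the difference was not significant (log2 fold change 1.61, standard error 0.571, 95% interval 0.27 to 2.96, edgeR adjusted p = 0.122). Among the CD36- NK libraries, replicate 2 had the most Nectin2 and also the most macrophage RNA, with 688 CPM for the macrophage and Kupffer cell list against 134 and 152, and the part of this RNA in the Nectin2 counts was not tested. Without that library Nectin2 was called (log2 fold change 2.4, adjusted p = 0.0489), as it was by edgeR's exact test on all 6 libraries (1.62, adjusted p = 0.0499).

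Havcr2 (ENSMUSG00000020399; chromosome 11, plus strand, 46345762 to 46372082) was the only one of the 10 genes called higher in CD36+ NK. It had 385, 707 and 642 counts in CD36+ NK and 146, 253 and 136 in CD36- NK. The CPM values were 34.2, 51.9 and 53.3 against 11.2, 22.3 and 13.3. The groups were well apart, with CD36+ NK replicate 1 the lowest of its group and CD36- NK replicate 2 the highest of the other. The means were 46.5 ± 10.6 and 15.6 ± 5.92 CPM (SD, n = 3 each), 2.98-fold higher in CD36+ NK, and the log2 fold change was 1.58 (standard error 0.292, 95% interval 0.89 to 2.26, edgeR adjusted p = 0.0196).

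Macrophage and Kupffer cell genes moved with Havcr2. The macrophage and Kupffer cell list summed to 1224, 1946 and 3582 CPM in CD36+ NK and 152, 688 and 134 CPM in CD36- NK, and CD36+ NK replicate 1 and CD36- NK replicate 2 held the same places in their groups as for Havcr2. All 9 tested genes of the 12 had positive log2 fold changes, with a median of 2.90, and 3 were called. The most abundant were C1qb and C1qa, complement components made by macrophages, at 445 ± 235 and 435 ± 246 CPM in CD36+ NK and 60.9 ± 61.4 and 58.1 ± 60.6 CPM in CD36- NK (SD, n = 3 each). The 3 untested genes of the list were highest in CD36+ NK replicate 2: Clec4f had 17, 624 and 0 counts in CD36+ NK and 0 in every CD36- NK library. Vsig4 had 10, 181 and 6 counts against 0, 3 and 0, and Folr2 had 9, 61 and 10 against 4, 0 and 0, so both lay higher in CD36+ NK without overlap. Of 9 dendritic cell genes, Xcr1 (log2 fold change 2.46, edgeR adjusted p = 0.00763) and Clec9a (2.03, adjusted p = 0.0204) were called higher and Itgax lower (-1.13, adjusted p = 0.00969), with a median of 0.37. Of 9 genes of the monocyte list, Csf1r (1.89, adjusted p = 0.0378) and Cd14 (1.7, adjusted p = 0.00167) were called higher and Ccr2 lower (-1.35, adjusted p = 0.00649), with a median of 0.09. The part of macrophage, monocyte and dendritic cell RNA in the Havcr2 difference was not tested.

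Lag3 (ENSMUSG00000030124; chromosome 6, minus strand, 124881324 to 124888668) had 249, 311 and 448 counts in CD36+ NK and 168, 229 and 190 in CD36- NK, or 22.1, 22.8 and 37.2 against 12.9, 20.2 and 18.5 CPM. The groups did not overlap, although CD36+ NK replicates 1 and 2 lay just above CD36- NK replicate 2. The log2 fold change was 0.67 (standard error 0.257, 95% interval 0.07 to 1.28), which did not pass the test (edgeR adjusted p = 0.150). Lag3, Cd274, Pvr and Nectin2 were the 4 uncalled genes whose CD36+ NK libraries all lay above the CD36- NK libraries, a pattern that 17.0% of all tested genes had, while 15.7% had the opposite one.

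Ctla4 (ENSMUSG00000026011; chromosome 1, plus strand, 60926159 to 60954991) had 160, 55 and 56 counts in CD36+ NK and 94, 19 and 95 in CD36- NK, or 14.2, 4.04 and 4.65 against 7.21, 1.68 and 9.26 CPM. The groups overlapped, and CD36+ NK replicate 1 was far above the other CD36+ NK libraries. The log2 fold change was 0.33 (95% interval -1.27 to 1.93, edgeR adjusted p = 0.813), and it was -0.49 without that library and -0.11 without CD36- NK replicate 2, its lowest library. A pseudogene on the same strand, Rpl18-ps1, overlaps Ctla4 in the table with 7 to 17 counts per library, and Cd274 overlaps Gm36043 with 0 to 3 counts. The other overlapping genes had 0 counts.

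Pdcd1 (ENSMUSG00000026285; chromosome 1, minus strand, 93966027 to 93980278) was barely detected and was not tested. It had 29, 3 and 5 counts in CD36+ NK and 9, 2 and 0 in CD36- NK, 48 in all. CD36+ NK replicate 1 held most of them. For the CD36- NK replicate at 0, the limit that 3 counts set was 0.292 CPM, which covers counting error only. With no filter on low counts the log2 fold change was 1.75 (edgeR adjusted p = 0.517), which did not pass the test.

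The summed levels of the T cell, neutrophil and erythroid lists were highest in the library where Ctla4 and Pdcd1 were highest. So were those of the B cell, platelet, hepatic stellate cell, and liver-resident NK and ILC1 lists. Not every gene of these lists was highest there. The list of 10 T cell genes summed to 431 CPM in CD36+ NK replicate 1, to 59.6 and 66.5 CPM in the other CD36+ NK libraries, and to 147 to 188 CPM in CD36- NK. Most of the sum in CD36- NK came from Trbc1 and Trbc2. Cd3e, which encodes a chain of the T cell receptor complex, was at 26.9 CPM in CD36+ NK replicate 1 and at 0.083 to 1.06 CPM elsewhere. The most abundant genes of the list were Trbc1, at 41.9 CPM in that library against 93.5 to 131 in CD36- NK and called lower in CD36+ NK (log2 fold change -2.0, edgeR adjusted p = 0.0182), and Trbc2, which was not called (-0.40, adjusted p = 0.807). Over the 10 genes the median log2 fold change was 2.28, with 2 called higher and 1 lower. The positive median rested on CD36+ NK replicate 1, and without it the median was -1.54, with 8 of the 10 log2 fold changes negative, 2 genes called higher and 5 lower. Without CD36+ NK replicate 1, the calls of Tigit, Cd96, Cd226 and Havcr2 stayed as they were, with log2 differences in the same directions. The neutrophil list summed to 4476 CPM in that library against 767 to 3763 elsewhere, and the erythroid list to 792 against 76.7 to 388. The part of such RNA in the Ctla4 and Pdcd1 values was not tested.

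**Figure D3:**
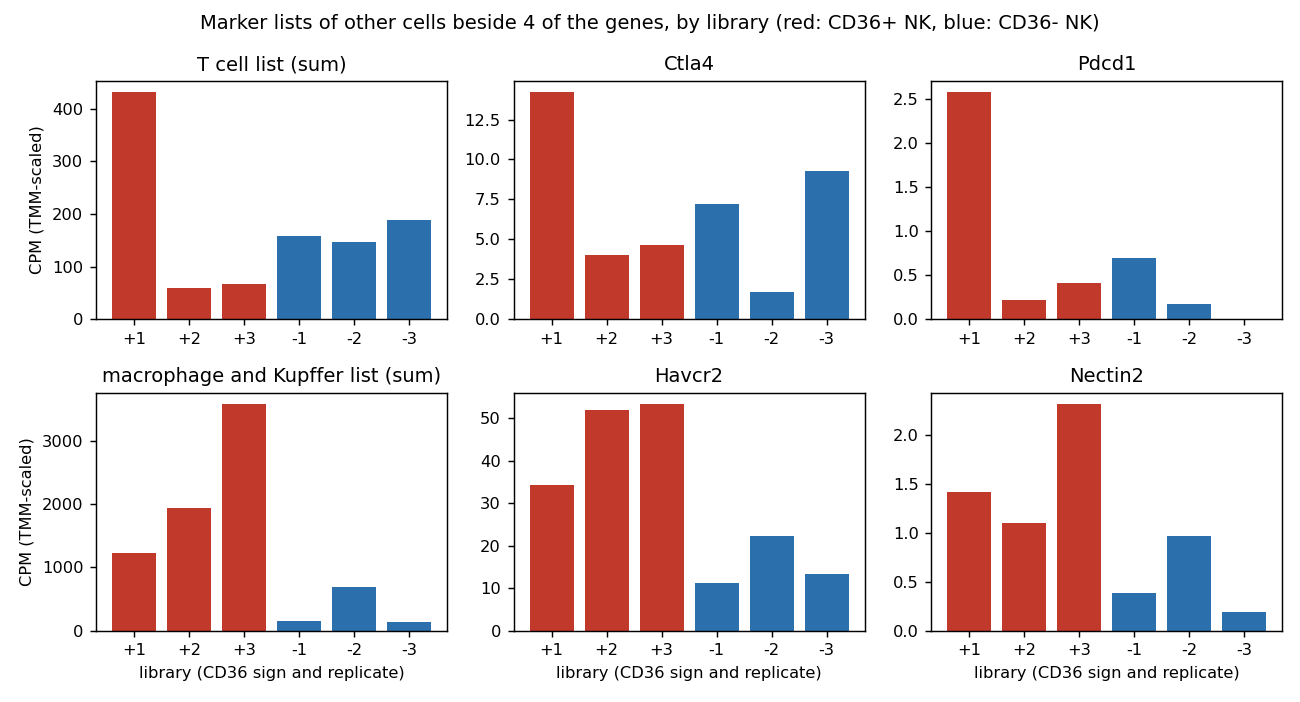
Summed CPM of the T cell list and of the macrophage and Kupffer cell list, beside the CPM of Ctla4, Pdcd1, Havcr2 and Nectin2, in each library (red bars CD36+ NK, blue bars CD36- NK, linear axes from 0). The T cell list, Ctla4 and Pdcd1 are highest in CD36+ NK replicate 1, and the macrophage list, Havcr2 and Nectin2 are higher in CD36+ NK and, within CD36- NK, highest in replicate 2.

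Cd274 (ENSMUSG00000016496; chromosome 19, plus strand, 29344855 to 29365495), the PD-1 ligand, was the most abundant of the 10 genes. It had 1905, 2763 and 2850 counts in CD36+ NK and 1362, 1040 and 1586 in CD36- NK, or 169, 203 and 236 against 105, 91.8 and 155 CPM. The lowest CD36+ NK library lay just above the highest CD36- NK library. The means were 203 ± 33.7 and 117 ± 33.2 CPM (SD, n = 3 each), 1.74-fold higher in CD36+ NK, and the difference did not pass the test (log2 fold change 0.80, standard error 0.215, 95% interval 0.29 to 1.3, edgeR adjusted p = 0.0605). The adjusted p passed with DESeq2 (0.00603), edgeR's exact test (0.00892) and upper-quartile factors (0.0491), all at a fold change under 2. Without CD36- NK replicate 3, in which Cd274 was highest of its group, the log2 fold change was 1.04 and Cd274 was called (adjusted p = 0.0243).

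**Figure D4:**
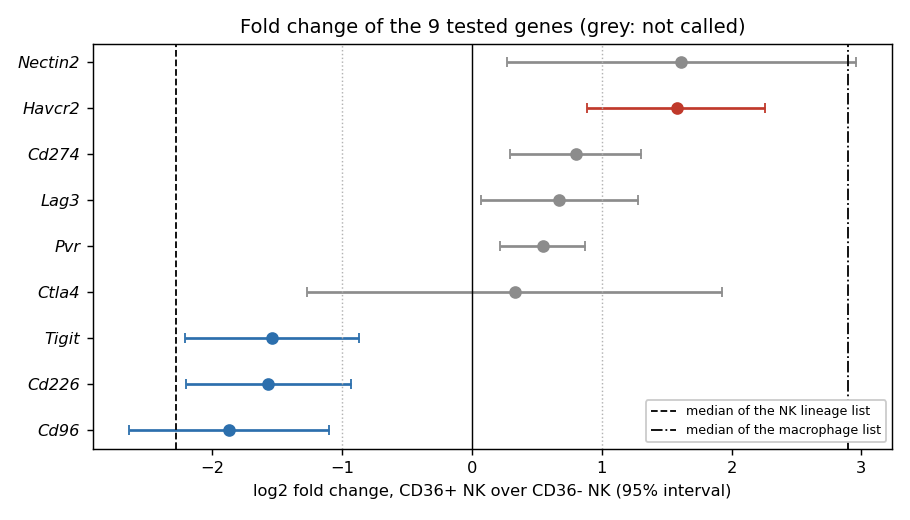
Log2 fold change of the 9 tested genes, CD36+ NK over CD36- NK, with 95% intervals; blue and red mark called genes, grey the others, dotted lines a fold change of 2, and the dashed and dash-dotted lines the medians of the NK lineage (-2.28) and macrophage (2.90) lists. Only Tigit, Cd96, Cd226 and Havcr2 are called, and the interval of Ctla4 spans 0.

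Levels of different genes were compared in FPKM as deposited, which is per kilobase of the length that the authors' processing gave each gene. These lengths were not checked, and the order of the genes depends on them. In CD36+ NK, Cd274 was highest at a median of 55.3 FPKM, with every library above those of the next gene. Lag3 (10.4) and Havcr2 (10.3) came next and lay within 1 FPKM of each other in their medians, although their ranges did not overlap. Tigit (6.55) and Cd96 (5.84) followed and overlapped, as Havcr2 and Tigit did. Pvr (2.48), Cd226 (1.61) and Ctla4 (1.54) were lower, and Nectin2 (0.346) and Pdcd1 (0.206) were lowest.

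In CD36- NK the order differed. Cd274 (29.2 FPKM), Cd96 (25.5) and Tigit (21.9) had overlapping ranges at the top, and Lag3 (8.53) stood alone below them. Cd226 (4.17), Havcr2 (2.66), Ctla4 (2.53) and Pvr (1.71) followed, each of the first 3 overlapping with the next, while Pvr lay wholly above the genes after it. Pdcd1 (0.0942) and Nectin2 (0.0933) were lowest. Havcr2 was thus above Tigit and Cd96 by its median in CD36+ NK and below both in CD36- NK.

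The other genes of the pathway were taken from 6 lists with 66 genes, of which 61 were tested. Of these, 17 were called, 6 higher and 11 lower in CD36+ NK, which is 27.9% of the tested genes of the lists against 5.96% of all tested genes. The lists were chosen with earlier results of these data known, so these shares are a description and not an independent comparison. The median log2 fold change of the tested genes was 0.05. The number of calls was 10 without CD36- NK replicate 1 and 11 when either CD36+ NK replicate 2 or the third CD36- NK library was left out.

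Among 8 tested nectin and nectin-like adhesion genes, 1 was called higher and 2 lower, with a median log2 fold change of 0.66. Crtam, an activating receptor of NK and T cells that binds Cadm1, was lower in CD36+ NK, at 7.4 ± 2.42 against 24.1 ± 2.48 CPM (SD, n = 3 each; log2 fold change -1.71, edgeR adjusted p = 0.00717). Its ligand Cadm1 was called higher, at 22.6, 30.3 and 63.1 CPM against 4.83, 14.8 and 4.19 (2.28, adjusted p = 0.049997). Within CD36- NK, Cadm1 was highest in replicate 2, the library with the most macrophage RNA. Pvrig, an inhibitory receptor for nectin-2, was lower (-1.01, adjusted p = 0.0219). Afdn, which encodes the scaffold afadin that anchors nectins, and Nectin1 were not called (0.09 and 0.74, adjusted p = 0.842 and 0.146).

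Of 11 tested B7, CD28 and HVEM family genes, 1 was called in each direction, and their median log2 fold change was 0.29. Cd86, a ligand of CD28 and CTLA-4 on antigen-presenting cells, was at 76.9, 96.0 and 162 CPM in CD36+ NK and 31.1, 49.3 and 30.2 in CD36- NK (log2 fold change 1.6, edgeR adjusted p = 0.0237). Cd160, an NK cell receptor for HVEM, was at 16.9 ± 3.19 against 74.0 ± 8.63 CPM (SD, n = 3 each; -2.12, adjusted p = 0.000948). Both genes kept the groups apart, in opposite directions. Btla, the inhibitory HVEM receptor abundant on B cells, and Icosl, the ICOS ligand, were not called (0.29 and 0.05, adjusted p = 0.161 and 0.858).

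Of 9 tested ligands and relatives of LAG-3 and TIM-3, 2 were called, both higher in CD36+ NK, with a median of 0.22. Ceacam1, which binds TIM-3, was at 276 ± 56.3 and 107 ± 34.4 CPM (SD, n = 3 each; log2 fold change 1.37, edgeR adjusted p = 0.0208). Cd4, which like LAG-3 binds MHC class II, was at 51.2, 11.2 and 23.8 CPM against 4.68, 7.77 and 4.58 (2.34, adjusted p = 0.0396). Cd4 was highest in CD36+ NK replicate 1, where the sum of the T cell list was also highest, but Cd4 is itself a gene of that list. In the other CD36+ NK libraries Cd4 was above every CD36- NK library, while the T cell list sum was below them. Bag6 and Lgals3, other binding partners among these ligands and relatives, were not called (-0.14 and 0.22, adjusted p = 0.387 and 0.628).

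The 12 other inhibitory and costimulatory receptors, all tested, had 2 called in each direction and a median of -0.21. Sirpa, the myeloid receptor for CD47, was 5.78-fold higher in CD36+ NK, at 593 ± 192 against 103 ± 38.3 CPM (SD, n = 3 each; edgeR adjusted p = 0.00697), and Lair1, an inhibitory collagen receptor, was higher by 1.68 on the log2 scale (adjusted p = 0.0118). Tnfrsf9, the costimulatory receptor 4-1BB, was lower (-1.79, adjusted p = 0.00624), as was Adora2a, an adenosine receptor that inhibits lymphocytes (-1.32, adjusted p = 0.00255). Cd47 was not called (-0.16, adjusted p = 0.459). Cd244a, which encodes the NK receptor 2B4, passed the adjusted p (0.0327) but not the fold threshold (-0.80).

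Signalling partners of the receptor tails had 3 of 9 tested genes called, all lower in CD36+ NK, and a median of 0.05. These were the kinases Fyn (log2 fold change -1.24, edgeR adjusted p = 0.00631) and Lck (-1.78, adjusted p = 0.0150) and the adaptor gene Sh2d1a, which encodes SAP (-2.33, adjusted p = 0.00406). The phosphatase genes Ptpn6 and Inpp5d, whose products SHP-1 and SHIP-1 act below inhibitory receptors including TIGIT, were not called (0.53 and 0.05, adjusted p = 0.0512 and 0.837).

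Of 12 transcription factors linked to checkpoint receptors, 3 were called, all lower in CD36+ NK, with a median of -0.96. Eomes and Tbx21, the T-box factors of NK cell maturation, had log2 fold changes of -2.58 and -2.28 (edgeR adjusted p = 0.000428 for both). Tox, a factor of NK cell development and of T cell exhaustion, was at 12.7, 6.31 and 6.55 CPM against 28.3, 26.1 and 34.8 (-1.81, adjusted p = 0.0116). Nr4a1, an early response factor, was not called (0.43, adjusted p = 0.494). Eomes and Tbx21 were close to the NK lineage median of -2.28, and Tox lay nearer to Cd96.

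**Figure D5:**
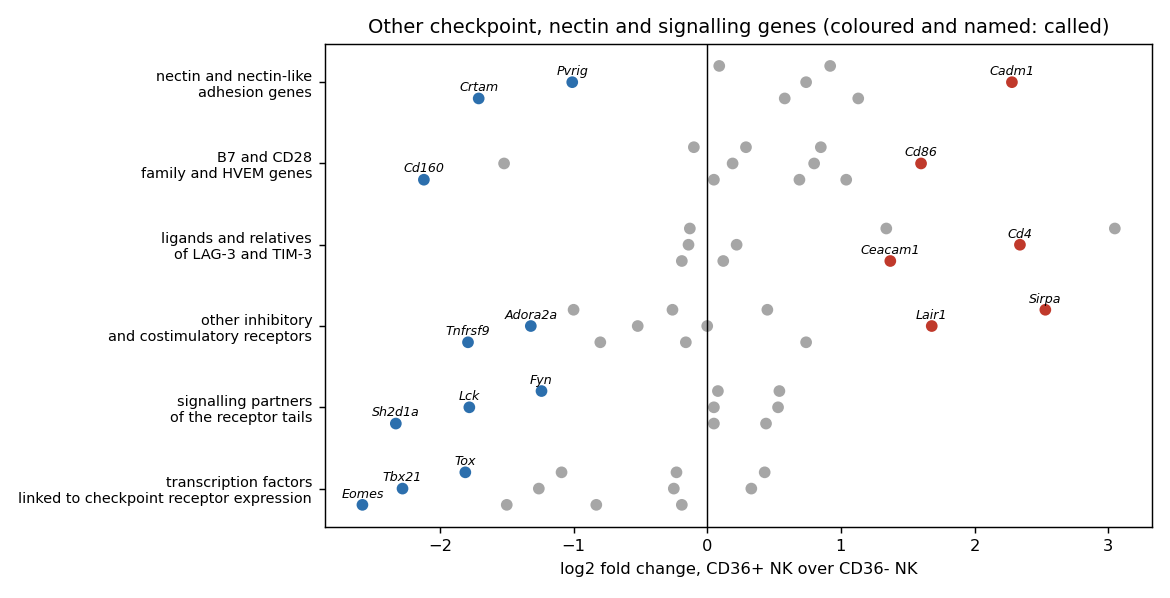
Log2 fold change, CD36+ NK over CD36- NK, of the 61 tested genes in 6 pathway lists, each point 1 gene, with called genes coloured (red higher, blue lower) and named and the others grey; points are shifted vertically only to separate them. Calls go both ways in 3 lists, only higher among ligands and relatives of LAG-3 and TIM-3, and only lower among signalling partners and transcription factors.

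The genes whose pattern was most like that of a called gene were taken by Pearson's r of log2 CPM over the 6 libraries, as a description. For Tigit they were Mta2 (r = 0.9985), Tpm3 and S100a13, and for Cd96 Lef1os1 (r = 0.9978), Pglyrp2 and Hid1. Those most like Cd226 were Arhgap45 (r = 0.9989), Acap3 and Skiv2l, and those most like Havcr2 were Ell2 (r = 0.9979), Zfp516 and Slc12a2. Between 290 and 555 genes had an r above 0.95 with each of the 4 genes. All points share library and sort, and the difference between the groups alone gives many genes a high r. A like pattern did not mean a like size, as the log2 fold change of Mta2 was -0.31 against -1.54 for Tigit.

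The library names take 2 forms, in that replicate 1 of both groups carries its number first and replicates 2 and 3 carry it last. For CD36- NK the numbers in the library names (6, 1 and 2) differ from those in the titles (1, 2 and 3). Within the 4 libraries of the latter form, Tigit (log2 fold change -1.63, edgeR adjusted p = 0.0422) and Cd96 (-2.40, adjusted p = 0.0209) were called. Cd226 (-1.86, adjusted p = 0.0572) and Havcr2 (1.55, adjusted p = 0.0554) kept their directions without passing the test. The other form has 1 library per group and gives no test. The number of calls among the 10 genes depended on single libraries. With edgeR it was 0 without CD36+ NK replicate 2 or without CD36- NK replicate 1 (8 and 6 genes at an unadjusted p under 0.05). It was 2 without CD36+ NK replicate 3, and 1 (Cd274) without CD36- NK replicate 3. Over all tested genes the calls also fell in these fits, from 880 to 418, 417, 451 and 431. Without CD36- NK replicate 2 there were 5 calls among the 10 genes and 1160 over all genes. Without CD36+ NK replicate 1 there were 4 and 1122.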

How the data were processed

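Total RNA of CD36+ NK and CD36- NK from fibrotic mouse liver, 3 libraries each, was sequenced on an Illumina NovaSeq. The authors filtered reads with Seqtk, aligned them with HISAT2 2.0.4 and deposited whole-number counts per gene, without normalization, made with StringTie; strandedness and the annotation are not given in the sources used here. The authors also deposited FPKM, which their processing normalized by library total and by a length for each gene, and these were used as deposited. In 100% of 7439 well-counted genes, the length implied by count, FPKM and library total was the same in every library within 1%. The length itself was not checked. The submitters' processing notes name the build mRatBN7.2, a rat assembly, although the gene identifiers are mouse Ensembl ones, so coordinates are printed as deposited. The authors' own fold changes and p-values in the table were not used. In 2 places a broken line was rejoined.

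Counts were analysed in R 4.3.3 with edgeR 4.0.16 (limma 3.58.1): filterByExpr with a minimum count of 10, TMM, glmQLFit and glmQLFTest with the group alone, and Benjamini-Hochberg adjustment over 14761 genes. Intervals are 95%. DESeq2 1.42.0 was an alternative, with others on filter, scaling, blocks and left-out libraries. No protein sequence was analysed here. The fits were tested on simulated data. Exact permutation tests, with 0.5 counts added for ratios, used Python 3.11.15. Groups and replicate numbers come from the sample titles. The genes and all lists were chosen with earlier results of these data known. Named genes are the 10, Cd36, Klrb1c, Ncr1, each called gene and the 2 most abundant uncalled genes of each pathway list, the 2 most abundant genes of marker lists set beside a result, and the 3 genes most like each called gene; Cd3e, Clec4f, Vsig4, Folr2, Itga1, Tnfsf10 and the genes of the dendritic cell and monocyte lists were added after their values were seen. A gene that this rule would name is not reported here.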

Additional observations from a re-analysis of the deposited data

How the results depend on the processing

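Tigit, Cd96 and Cd226 stayed lower and Havcr2 higher in CD36+ NK in each of 16 alternatives, with log2 fold changes from -2.02 to -1.34, -2.42 to -1.61, -1.90 to -1.33 and 1.37 to 2.10 and adjusted p up to 0.0815, 0.0712, 0.0601 and 0.0769. The calls were lost in 4, 3, 5 and 5 of these. With 1 library left out, all genes called ranged from 417 to 1160 (880 with all), called genes among the 10 from 0 to 5 (4 with all) and those of the pathway lists from 10 to 21 (17 with all). The 4 libraries of one name form gave 433 calls, 2 among the 10 genes and a Tigit to Cd96 difference of 0.80. Without the fold threshold 1552 genes were called. Higher calls, 440 of 880 with all libraries, were 24.5% in those 4 libraries, 39.5% with a block by replicate number and 22.5% to 61.0% with 1 library left out. DESeq2 called 1143 genes and edgeR's exact test 1247.

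Leaving out CD36+ NK replicate 1 and CD36- NK replicate 2 together, chosen after seeing the data, gave 1457 calls, 28 in the pathway lists and 4 among the 10 genes, and Ctla4 at -0.93. Ctla4 was -0.33 in the 4 libraries and -0.49 to 0.77 with 1 library left out. The Tigit to Cd226 difference ranged from -0.09 to 0.30 in that case. The cause of these changes was not tested.

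A block by replicate number left 560 calls and 3 of the 10, Cd226 being lost (adjusted p = 0.0571). The numbers were not taken as pairing: deviations of same-numbered libraries correlated at 0.367, 0.0871 and -0.086, and not every library correlated best with its own number. The block also took Cd274 past the adjusted p (0.0389) at a fold change under 2. Low counts limit Pdcd1, with 48 in all, 29 of them in 1 library, and Nectin2.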
